A study of Rattus norvegicus with 5 samples.

Results

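The proliferative zone (PZ) of the mandibular condylar cartilage (MCC) of the rat was compared with its hypertrophic zone (HZ), as the log2 value of the PZ array minus that of the HZ array. These are 2 of the 5 arrays of the study, and the comparison covers all 31042 of 31099 probe sets that are not control probe sets of the array. Both samples came from wild type Sprague-Dawley rats, male and 5 weeks old. Cells of each zone were cut by laser from frozen sections 7 µm thick, and per the labels the lysates of 30 sections were pooled into a single sample for each zone. The other arrays, which are used here to place the values, hold the fibrous zone (FZ) and the mature chondrocyte zone (MZ) of the same cartilage and the femoral condylar cartilage (FCC). For FZ the study's methods give a larger number of pooled sections than the labels do, so its input may have differed from that of the other zones. No treatment was given to any group. Each zone has 1 array made from pooled sections, so the differences below lack a replicate check and are given without tests or p-values.

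The condylar cartilage covers the head of the lower jaw, and its surface is fibrous rather than hyaline. Beneath that surface lies a layer of progenitor cells, which divide and become chondrocytes that lay down a matrix of collagen and aggrecan. Deeper down the chondrocytes enlarge, make type X collagen, mineralize their matrix and border on the bone and marrow that replace them. PTHrP, made near the surface, and Indian hedgehog, made by chondrocytes about to enlarge, are known to set the pace of these steps in growth cartilage.

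In the deposited values every probe set has a median of 0 across the 5 arrays, so a value says how far an array stood from that median and not how strongly a gene was expressed. Levels of different genes were therefore not compared. A difference of 1 on this scale is 2-fold and a difference of 2 is 4-fold. Where a gene has several probe sets, its value is their mean. For the 4525 genes measured by several probe sets, the standard deviation (SD) between probe sets of a gene in the PZ minus HZ difference had a median of 0.33, the only error that these files allow.

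The differences between PZ and HZ were uneven in number and in size. At least 4-fold higher in PZ were 231 probe sets (0.744% of all), and at least 4-fold higher in HZ were 310 (0.999%). The differences ran from −4.19 to 6.42, with 88.8% of the probe sets less than 1 apart and a median of 0.05. At 8-fold the balance turned, with 73 probe sets higher in PZ and 36 higher in HZ. Of the 14217 genes with a name, 115 were at least 4-fold higher in PZ and 152 in HZ, and at 2-fold the numbers were 479 (3.37%) and 1196 (8.41%), against which the gene lists below are read.

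**Figure D1:**
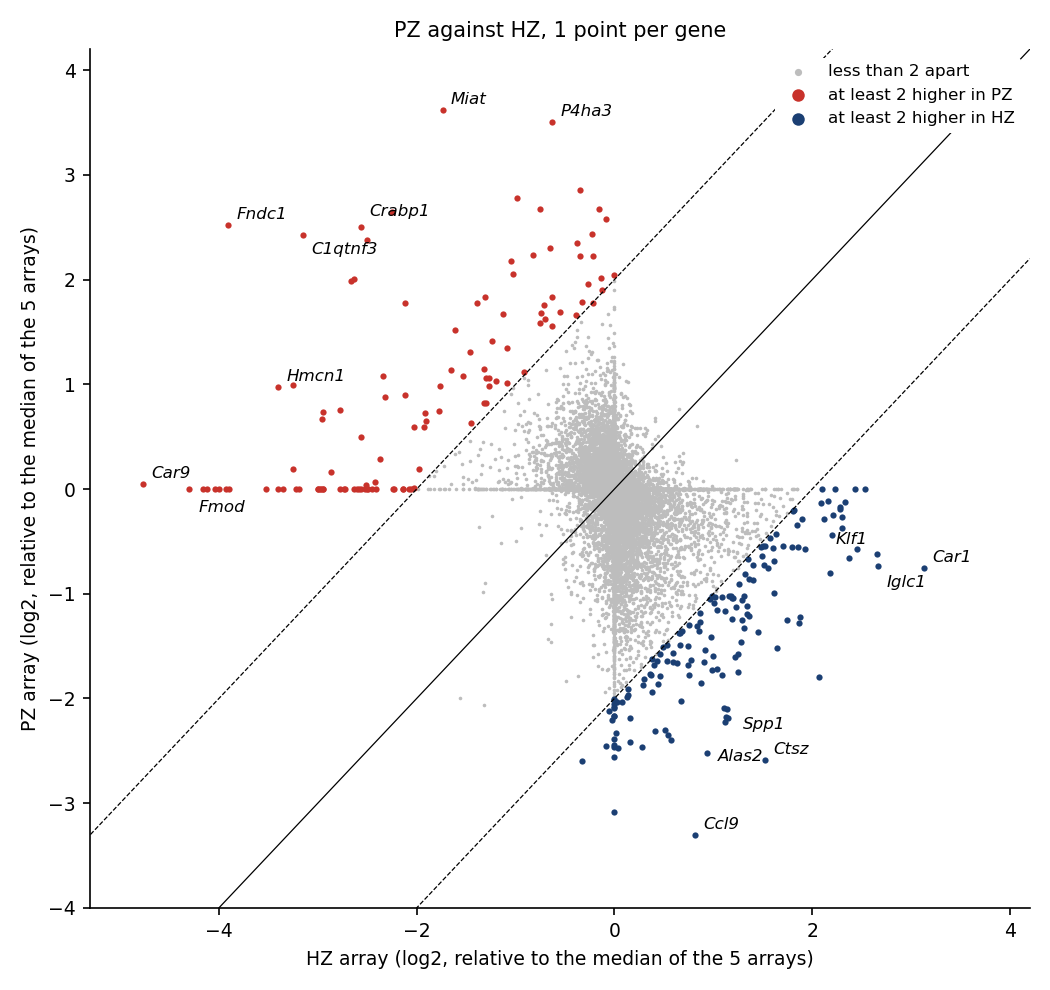
Each point is 1 of 14217 genes, with its log2 value in the HZ array on the x axis and in the PZ array on the y axis, both relative to the median of the 5 arrays. The solid line marks equal values and the dashed lines a difference of 2. The 115 genes higher in PZ (red) reach farther from the line than the 152 higher in HZ (blue), and the rows of points at 0 arise where PZ or HZ itself was the median array.

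Both labels were checked against markers. Of the hypertrophic markers, Col10a1, the collagen that defines hypertrophic chondrocytes, stood at −1.61 in PZ and 0.37 in HZ. Panx3, a channel protein of the prehypertrophic and hypertrophic cell, stood at −0.61 and 1.24, and Alpl, the phosphatase that frees phosphate for mineral, at −0.50 and 0.81. Ihh, Mmp13 and Ibsp lay in the same direction with less than 2-fold between the zones, at differences of −0.45, −0.64 and −0.27. Spp1 (osteopontin), which hypertrophic cells, bone cells, macrophages and osteoclasts all make, stood at −2.17 in PZ and 1.13 in HZ. The HZ label was thus matched at 2-fold or more by 4 of these 7 genes. Against MZ the hypertrophic markers did not set HZ apart, since Col10a1 stood at 0.62, Alpl at 1.47 and Ihh at 1.23 in MZ.

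The proliferative label was not matched by the genes of the dividing cell that were chosen as its markers. Mki67, which marks all cycling cells, was 0.00 in PZ and 0.51 in HZ. Cdk1 and Ccnb1, which drive entry into mitosis, differed by −0.18 and −0.20, the probe sets of Ccnb1 at −0.48 and 0.08. Top2a, the topoisomerase of S and G2 phase, stood at −0.80 in PZ and 0.40 in HZ. Other cell cycle genes, given further below, went both ways. Of 34 on that list 8 differences were positive and 26 negative, and 22 genes lay within 2-fold. Pthlh, which encodes PTHrP, was not analysed here because no probe set is listed under its name. PZ is therefore the name of the zone that was cut, and no statement on division follows from it here.

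Of the 15 genes highest in PZ, 4 were members of the tendon, cartilage, proteoglycan and collagen lists used here, which hold 71 of the 14217 genes. Fndc1, a secreted protein with fibronectin type III domains, had the largest difference, with 2.52 in PZ and −3.91 in HZ (6.42, or 85.9-fold). C1qtnf3, also called cartducin and made by chondroprogenitors, stood at 2.43 and −3.15, and Miat, a long noncoding RNA, at 3.62 and −1.74. Both were 40-fold or more apart, at 47.8-fold and 40.9-fold. Crabp1, which binds retinoic acid in the cytoplasm, stood at 2.51 in PZ and −2.56 in HZ, with 4.89 in FZ.

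Aspn (asporin) and Dpt (dermatopontin), both small matrix proteins that bind collagen or decorin, differed by 4.89 and 4.88. Each has a pair of probe sets, and these gave 4.19 and 5.59 for Aspn and 3.86 and 5.90 for Dpt. Car9, the carbonic anhydrase of hypoxic cells, took its difference of 4.81 from a low HZ value of −4.77 beside 0.04 in PZ. The remaining genes were Zfp185 (4.65), which binds actin, Ephb3 (4.65), an ephrin receptor, the matrix proteins Hmcn1 (4.38), Matn2 (4.30) and Fmod (4.12), Ahnak2 (4.25), Fam180a (4.16), and P4ha3 (4.14), a subunit of the enzyme that hydroxylates prolines of collagen.

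These 15 genes did not share 1 course over the zones. In all 15 FZ lay at least 2 above HZ as well, so a high value in PZ was not particular to it. In 8 of them the larger part of the difference lay between PZ and MZ, and in 7 it lay between MZ and HZ. Hmcn1 stood for the first kind, with 0.97 in PZ, −2.94 in MZ and −3.40 in HZ. Fam180a stood for the other, with 0.00, −0.87 and −4.16. Only the P4ha3 and C1qtnf3 values of PZ were the highest of the 5 arrays, at 3.51 and 2.43, though FZ lay close by at 3.34 and 2.36.

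**Figure D2:**
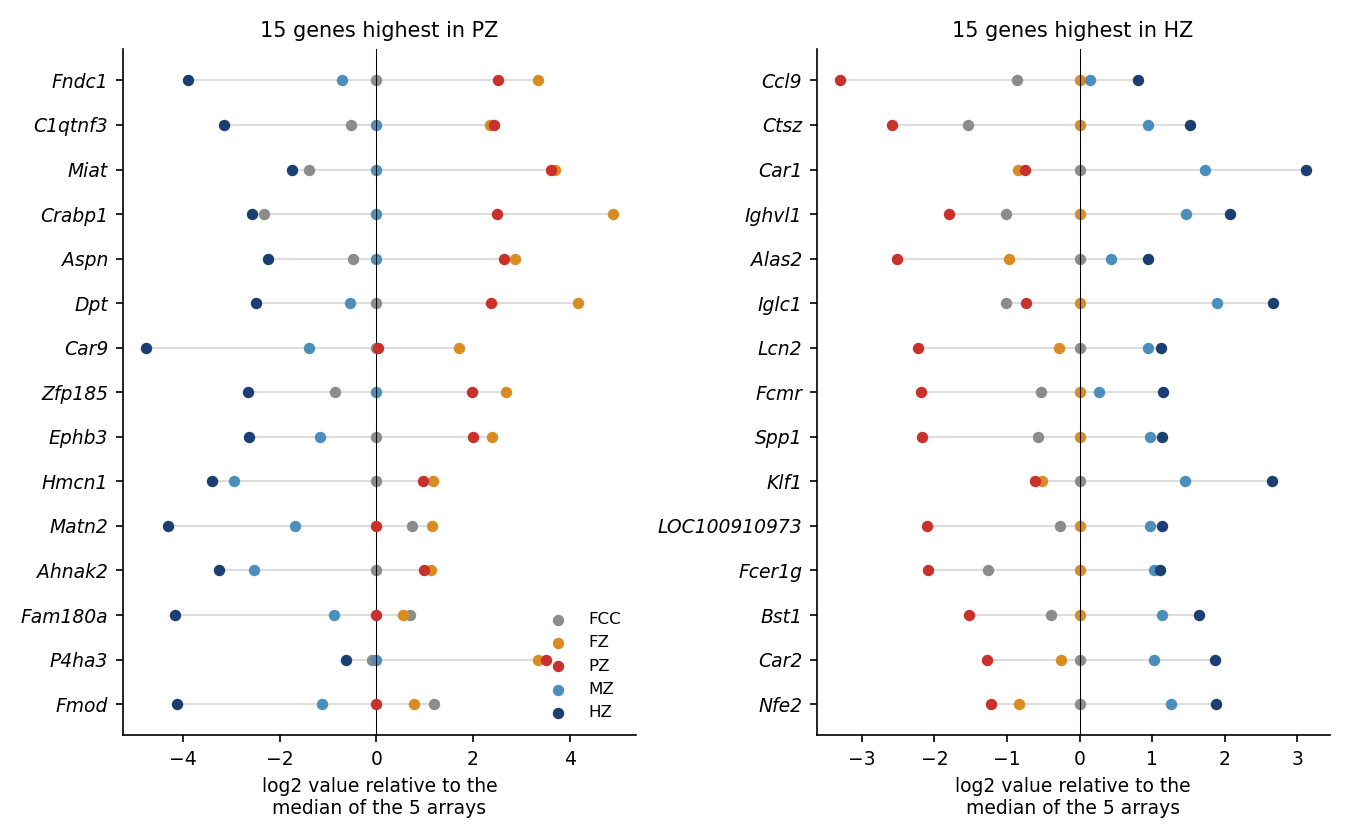
Values of the 15 genes highest in PZ (left) and the 15 highest in HZ (right), on a log2 axis relative to the median of the 5 arrays, with 1 point per array. On the left FZ and PZ lie on one side and HZ at the far end. On the right PZ is the lowest of the arrays in 13 of 15 genes, Car1 and Iglc1 being the exceptions, while MZ and HZ lie at the other end.

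Of the 15 genes highest in HZ, 7 were on the lists of blood cell genes used here, which hold 91 of the 14217 genes. Ccl9, a chemokine of myeloid cells and osteoclasts, stood at −3.30 in PZ and 0.81 in HZ (−4.11), and Ctsz, a lysosomal cathepsin, at −2.59 and 1.52 (−4.11). Car1, the carbonic anhydrase of red cells, stood at −0.75 and 3.13 (−3.88). Alas2, which starts haem synthesis in red cell precursors, stood at −2.52 in PZ and 0.94 in HZ (−3.46). Klf1, a transcription factor of the same cells, stood at −0.62 and 2.65 (−3.27).

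The immunoglobulin genes Ighvl1 (−3.87) and Iglc1 (−3.40) belong to families of near-identical copies, so that their probe sets may measure several genes. Lcn2 (−3.35), a protein of neutrophil granules, Fcmr (−3.34), the Fc receptor for IgM, Fcer1g (−3.20), the signalling chain of Fc receptors, and Bst1 (−3.17), a surface enzyme of marrow stroma and myeloid cells, are known from white blood cells. Spp1 (−3.31), Car2 (−3.15), the carbonic anhydrase of osteoclasts and red cells, LOC100910973 (−3.25), and Nfe2 (−3.10), a transcription factor of megakaryocytes and red cells, made up the rest. Of the 30 genes at both ends, 13 of 15 in PZ and 14 of 15 in HZ rest on 1 probe set each.

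All 6 lists of genes that mark blood cells had a negative median, that is, they were higher in HZ. Of the 91 measured genes on the red cell, platelet, neutrophil, macrophage, lymphocyte and pan-leukocyte lists, 53 were at least 2-fold higher in HZ and 0 in PZ, with a median difference of −1.28. That compares with 8.41% of all genes higher in HZ and a median over all genes of 0.00. Among the 100 genes highest in HZ, 20 were on these lists, and among the 100 highest in PZ, 0 were. Because the values are relative, whether any marker was near the background of an array cannot be read from them. In pooled tissue, fewer cells of a type and less RNA per cell cannot be told apart.

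For the red cell lineage, 12 of 16 genes were at least 2-fold higher in HZ, and the median of the list was −0.34 in PZ, 0.67 in MZ and 1.04 in HZ. Slc4a1, the anion exchanger of the red cell membrane, stood at −0.35 in PZ and 1.85 in HZ, though its probe sets gave −3.50 and −0.90. Gata1, the master regulator of the lineage, stood at −0.05 and 1.59, and Hbb, a globin chain, at −1.70 and 0.27. Hemgn and Rhd, proteins of the red cell nucleus and membrane, differed by −2.45 and −2.41. Ank1 (0.19) and Sptb (0.12) of the membrane skeleton, Rhag (−0.55) and Epor (−0.73) lay within 2-fold. For Epor this holds for the mean only, as its probe sets gave −2.27, 0.02 and 0.06.

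Of white cells, 14 of 16 pan-leukocyte genes were at least 2-fold higher in HZ, with a median of −1.82. Arhgdib, Cd53, Myb and Lcp1 differed by −2.75, −2.54, −2.54 and −2.24. On the lymphocyte list 10 of 15 genes passed 2-fold, among them Cd3g of the T cell receptor complex, at −0.57 in PZ and 2.45 in HZ, and Pou2af1 and Ms4a1 of B cells, with differences of −3.03 and −2.10. The macrophage list had 8 of 18, led by Csf1r, the receptor for the growth factor of the lineage (−2.33), and Tyrobp (−2.13).

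Granule and platelet genes were less uniform. On the neutrophil list 5 of 12 genes were past 2-fold, and S100a8 (−2.99), S100a9 (−2.87) and Camp (−2.70) with Lcn2 and Fcnb (−2.13) stood beside Mmp8, Padi4 and Cebpe, which lay between 0.00 and 0.08. On the platelet list 5 of 15 were past 2-fold, with Pf4 at −0.64 in PZ and 1.30 in HZ, yet MZ was higher than HZ for it, at 2.51. Itga2b and Gp9 did not differ between PZ and HZ, at 0.00 each, and stood at 1.15 and 0.57 in MZ. The part of these blood cells in the other genes higher in HZ was not tested.

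Genes of bone cells were also higher in HZ than in PZ, and MZ was close to HZ. The median of the osteoblast and osteocyte list was −0.50 in PZ, 0.34 in MZ and 0.27 in HZ. For the osteoclast list the medians were −0.36, 0.28 and 0.36. On the osteoblast and osteocyte list 7 of 13 genes passed 2-fold and 0 did so in PZ, with a median of −1.18. Mepe and Phex, which osteocytes use to control mineral and phosphate, differed by −2.45 and −1.68, and Dlx3, a transcription factor of osteoblasts, by −1.40. Bglap (osteocalcin) and Dmp1 differed by less, at −0.79 and −0.41. Of 11 osteoclast genes 4 passed 2-fold, Car2, Acp5 (tartrate-resistant acid phosphatase, −1.83), Mmp9 (−1.73) and Calcr (−1.20), whose probe sets disagreed at −2.41 and 0.00. Ctsk, the collagenase of osteoclasts, differed by −0.78.

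Among the 18 endothelial genes 5 were past 2-fold and higher in HZ, namely Cldn5 (−1.82), Nos3 (−1.77), Tie1 (−1.68), Esam (−1.30) and Emcn (−1.27), and all 18 had a negative difference. Pecam1 and Kdr, defining genes of vessels, differed by −0.52 and −0.08. The median of the endothelial list was −0.18 in PZ, 0.53 in MZ and 0.39 in HZ. Skeletal muscle genes did not follow either zone, with Ckm at −0.19 and Acta1 at 0.22, and 1 of 18 past 2-fold (Tnnt3, 1.25). The probe sets of Tnnt3 gave 0.13 and 2.36. Of the adipocyte genes Adipoq differed by 0.12, while Cfd, which macrophages also make, differed by −2.99.

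**Figure D3:**
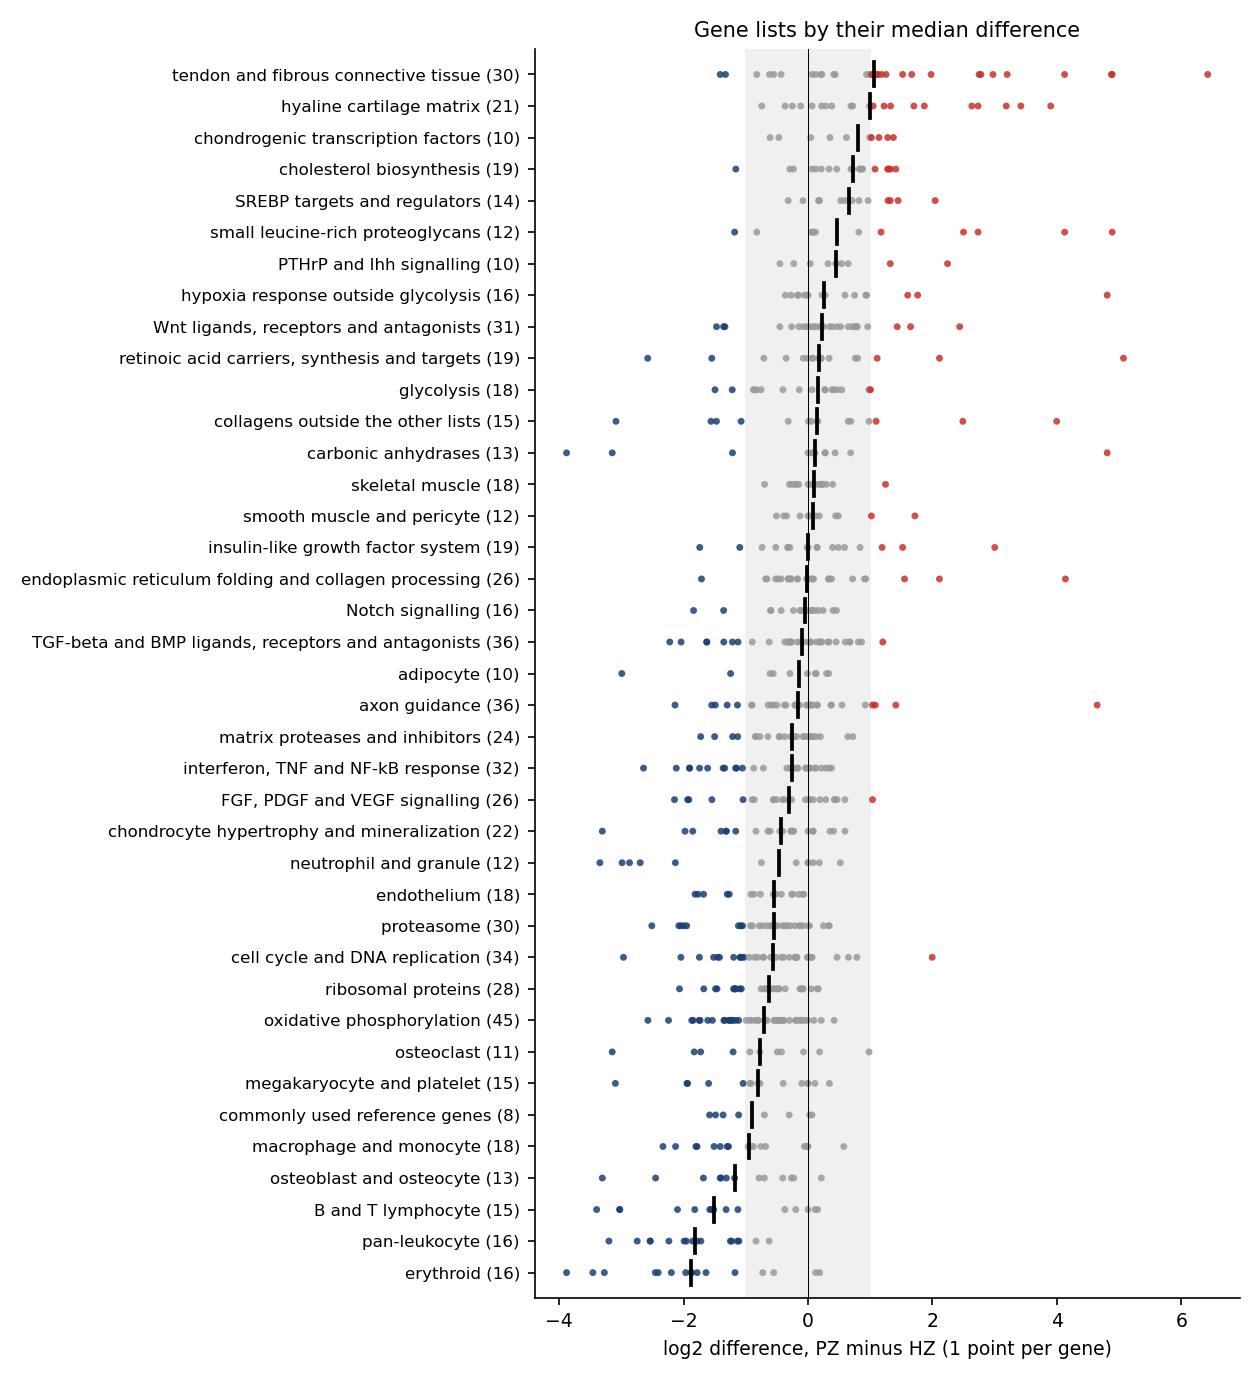
Differences between PZ and HZ (log2, x axis) for the genes of 39 lists (y axis, with the number of measured genes), 1 point per gene, with the list's median as a black bar. Points at least 1 from 0 are red where higher in PZ and blue where higher in HZ, and the grey band marks differences under 1. Medians run from 1.07 for tendon and fibrous tissue to −1.87 for red cells.

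Cartilage matrix genes were higher in PZ, and the size of the difference varied widely between them. Of 21 genes 10 were at least 2-fold higher in PZ (3.37% of all genes were) and 0 in HZ, with a median of 0.99. Ucma, a mineral-binding protein of young chondrocytes, stood at 0.00 in PZ, −0.36 in MZ and −3.90 in HZ. Hapln1, the link protein that ties aggrecan to hyaluronan, stood at 1.08, 0.00 and −2.35, and its 3 probe sets ran from 2.62 to 3.99. Clec3a, Prelp and Comp, secreted proteins that bind collagen or cartilage matrix, differed by 3.19, 2.73 and 2.63.

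Acan, the core protein of aggrecan, was 1.87 higher in PZ, and its probe sets gave 1.68 and 2.06. The 3 chains of type IX collagen, which coats the type II fibril, were all higher in PZ, Col9a3 by 1.70, Col9a1 by 1.33 and Col9a2 by 1.05. Type II collagen itself was within the spread of its probe sets, with Col2a1 at 0.00 in PZ and −0.22 in HZ and 3 probe sets from −0.02 to 0.42. Matn1 (0.28), Chad (0.07), Col11a2 (−0.12), Cnmd (−0.25) and Col11a1 (−0.37) did not reach 2-fold in either direction. MZ was higher than PZ for Comp, Clec3a, Col9a1 and Col9a2, so that the step towards lower values in these genes lay between MZ and HZ. The list did not behave this way against every superficial array, since FZ was at least 2-fold higher than HZ for 5 of the 21 genes and at least 2-fold lower for 8, with a median of −0.67. No share over all genes was counted for FZ against HZ, so these FZ counts and those below stand without one.

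Tendon and fibrous tissue genes had the highest median of the 39 lists, at 1.07, with 16 of 30 genes at least 2-fold higher in PZ and 2 in HZ. Tnmd (tenomodulin), the membrane protein that marks tendon cells, stood at 2.86 in PZ, −0.37 in MZ and −0.35 in HZ. Scx, the transcription factor of tendon progenitors, differed by 0.99. Col14a1 (2.97) and Col12a1 (1.67), which lie on the surface of collagen fibrils, and Postn (2.75) and Thbs2 (1.98), proteins of healing and fibrous matrix, were higher in PZ. Type I collagen went the other way, with Col1a1 at −1.41 and Col1a2 at −0.43, and Fap (−1.33) was the other gene at least 2-fold higher in HZ. The probe sets of Col1a1 gave −2.10 and −0.72. In both of them FZ, MZ and HZ were level, between 0.00 and 0.10. PZ stood at −2.03 and −0.62 in these probe sets, and FCC at −0.69 and −0.54.

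Among 12 small leucine-rich proteoglycans, which bind collagen and set the width of its fibrils, 5 were at least 2-fold higher in PZ and 1 in HZ. Besides Aspn, Fmod and Prelp these were Ecm2 (2.50) and Podn (1.17), and the 1 higher in HZ was Omd (−1.18), which is known from bone. Lum (0.07) and Bgn (0.09) were level and Dcn (decorin) differed by −0.82. Of 15 other collagens 3 were higher in PZ, Col8a2 (4.0), Col16a1 (2.49) and Col24a1 (1.10), and 4 in HZ. Col4a2 and Col4a1, the main chains of basement membranes, were among the latter, at −3.09 and −1.56, and Col4a2 stood at −3.09 in PZ with values from −0.18 to 0.49 in all other arrays.

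Of the enzymes that process collagen, P4ha3, Loxl2 (2.11) and Loxl1 (1.55) were higher in PZ. The last 2 belong to the lysyl oxidase family, which cross-links collagen and elastin. Plod1 (0.72), Plod2 (0.08), Plod3 (0.05) and Serpinh1 (−0.52), which act on the same chains inside the cell, were not past 2-fold. No matrix protease or inhibitor of 24 was at least 2-fold higher in PZ, and 4 were in HZ, Mmp9, Mmp16 (−1.50), Mmp12 (−1.21) and Timp1 (−1.13). Mmp2, Mmp14 and Adamts5 differed by 0.20, 0.02 and 0.04.

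The list of hypertrophy and mineralization held 22 measured genes, 7 of them at least 2-fold higher in HZ and 0 in PZ, with a median of −0.43. Besides Spp1, Col10a1, Panx3 and Alpl these were Ankh (−1.40) and Enpp1 (−1.16), which supply pyrophosphate, the inhibitor of mineral, and Slc20a1 (−1.32), a phosphate carrier. The 2 probe sets of Ankh gave −1.47 and −1.33. Phospho1 (0.00), which frees phosphate inside matrix vesicles, and Ccn2 (0.41) did not differ by 2-fold. Vegfa, which hypertrophic cells are known to secrete, was 0.59 higher in PZ.

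**Figure D4:**
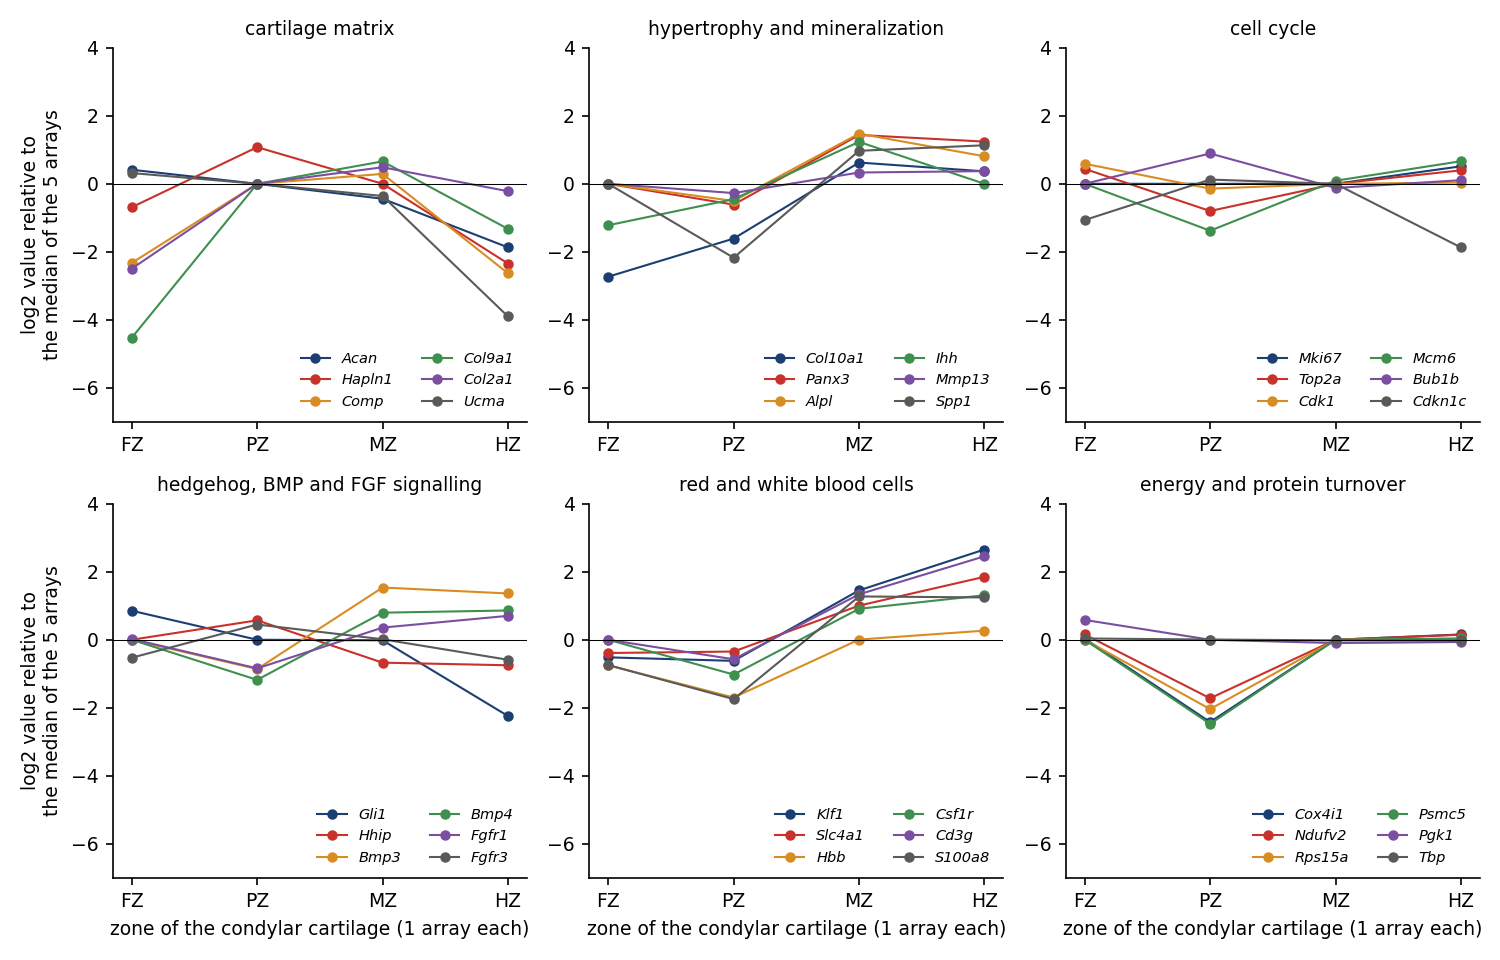
Log2 values (y axis, relative to the median of the 5 arrays) along the zones of the condylar cartilage from surface to depth (x axis, 1 array each) for 6 genes in each of 6 groups. Cartilage matrix genes are lowest in HZ or FZ, and hypertrophy and blood cell genes are higher in MZ and HZ. Of the zones shown, Cox4i1, Ndufv2, Rps15a and Psmc5 are low in PZ alone, while Pgk1 and Tbp differ between PZ and HZ by 0.07 and 0.03.

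Cell cycle genes were higher in HZ or level. Of 34 genes 11 were at least 2-fold higher in HZ and 1 in PZ, with a median of −0.56. The DNA helicase subunits Mcm6 (−2.04), Mcm5 (−1.52), Mcm4 (−1.42) and Mcm3 (−1.09), with Pcna (−1.45), Cdk4 (−1.75) and Cdc25b (−2.97), were among the 11. For Mcm6 PZ was low at −1.38, beside 0.00 in FZ, 0.09 in MZ and 0.66 in HZ, and FCC was low as well, at −1.28. The list median was −0.12 in PZ and −0.90 in FCC. The 1 gene higher in PZ was Cdkn1c (2.0), an inhibitor of cyclin-dependent kinases. Bub1b (0.78), Bub1 (0.65) and Cdc20 (0.47), which act at the spindle checkpoint, were positive without reaching 2-fold. When FZ is set against HZ in the place of PZ, 2 of 34 genes were past 2-fold and the median was −0.23. Red and white cell precursors divide too, and their part in the HZ values was not tested.

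In the hedgehog pathway, the targets Gli1 and Hhip were higher in PZ, and the ligand did not reach 2-fold. Gli1, a target whose level follows pathway activity, stood at 0.00 in PZ, −0.02 in MZ and −2.24 in HZ. Hhip, a target that binds and holds back the ligand, stood at 0.57, −0.67 and −0.75. The ligand Ihh was highest in MZ, at 1.23, with −0.45 in PZ and 0.00 in HZ. Smo, the signalling receptor, differed by 0.32, Sufu, an inhibitor inside the cell, by 0.54, Gli2 by 0.45 and the co-receptors Boc and Cdon by 0.65 and 0.46. Pth1r, the receptor for PTHrP, differed by −0.23. Of the 10 measured genes 2 passed 2-fold, both higher in PZ.

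Of the transcription factors of chondrogenesis, Sox6, a partner of Sox9, was 1.28 higher in PZ with probe sets at 0.87 and 1.70. Foxa2 (1.37), Trps1 (1.14) and Barx1 (1.02) also passed 2-fold, and the 4 probe sets of Trps1 ran from 0.87 to 1.36. None of these 4 reached 2-fold once the arrays were aligned on the hybridization controls, which are described with the scaling of the arrays. Foxa2, which is known from hypertrophy, stood at 0.00 in PZ, 0.08 in MZ and −1.37 in HZ. Mef2c (−0.61) and Hdac4 (−0.47), which promote and restrain hypertrophy, lay within 2-fold, though the probe sets of Mef2c gave −1.37 and 0.15. Sox9, Sox5, Runx2 and Sp7 were not analysed here, as no probe set is listed under their names.

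Genes of TGF-beta and BMP signalling were not higher in 1 zone as a group. Of 36 genes 7 were at least 2-fold higher in HZ and 1 in PZ, while 17 differences were positive and 19 negative, with a median of −0.09. Bmp3, made in bone and cartilage and known as an antagonist of the others, stood at −0.86 in PZ and 1.36 in HZ, Bmp4 at −1.18 and 0.86, and Bmp2 at −0.49 and 0.63. The ligands Bmp5, Bmp6 and Bmp7 were within 2-fold, at differences of 0.34, −0.29 and −0.33. The target Id3 (−1.63) and the inhibitors Grem1 (−1.63) and Bambi (−1.21) were also higher in HZ, while the target Id1 was 0.68 higher in PZ. The receptors Bmpr1a (0.60), Bmpr2 (0.45), Acvr1 (0.01) and Tgfbr1 (−0.37) were within 2-fold. The 1 gene higher in PZ was Fstl3 (1.20), an activin inhibitor, whose probe sets gave 0.31 and 2.09.

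In FGF signalling the receptors differed in direction. Fgfr3, which restrains growth cartilage, was 1.04 higher in PZ, its probe sets at 0.39 and 1.68. Fgfr1, known from hypertrophic cells, was 1.55 higher in HZ, its probe sets at −1.95 and −1.14. In the first of these PZ was low at −1.66, while the other arrays lay between −0.02 and 0.29. In the other, PZ stood at −0.02, MZ at 0.71 and HZ at 1.11. The feedback inhibitors Spry1 (−2.15), Dusp6 (−1.94) and Spry4 (−1.04), which FGF signalling induces, were higher in HZ. Pdgfa, a growth factor of another family on this list, differed by −1.92. The ligands Fgf18 (−0.04), Fgf2 (0.29), Fgf7 (0.08) and Fgf9 (−0.41) did not reach 2-fold.

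Of 31 Wnt genes 3 were at least 2-fold higher in PZ and 3 in HZ. The ligand Wnt9a, which is known from joint surfaces, stood at 1.31 in FZ and 1.35 in PZ, against −1.01 in MZ and −1.09 in HZ, and the ligand Wnt5b differed by 1.43. The related transcription factors Tcf7 and Lef1 went opposite ways, with Tcf7 at 1.20 in PZ and −0.45 in HZ and Lef1 at −0.58 and 0.77. Wif1, a secreted inhibitor, differed by −1.47 and Ccn4, a target, by −1.34. Axin2, the commonly used readout of the pathway, was 0.53 higher in PZ.

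The insulin-like growth factor genes were split in the same way, with 3 of 19 higher in PZ and 2 in HZ. H19, an imprinted noncoding RNA beside Igf2, stood at 0.00 in both PZ and MZ and at −3.0 in HZ. Igfbp6 (1.52) and Irs1 (1.19) were higher in PZ. Igfbp3 (−1.74), the main carrier of the ligand in blood, and Igf1 (−1.10) were higher in HZ. The 3 probe sets of Igf1 ran from −1.87 to −0.33. Igf2 differed by 0.59, and its 4 probe sets ran from 0.02 to 1.78.

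Retinoic acid carriers were higher in PZ and a synthesis enzyme was higher in HZ. Beside Crabp1, Crabp2, which brings retinoic acid to the nucleus, stood at 1.78 in PZ and −0.33 in HZ, and Rbp4, the carrier of retinol in blood, differed by 1.11. Aldh1a2, which makes retinoic acid, stood at −0.24 in PZ and 1.30 in HZ, and Rarres1, a gene induced by it, at −1.22 and 1.36. The receptors Rara (−0.08), Rarb (−0.35) and Rarg (0.17) and the breakdown enzymes Cyp26a1 (0.21) and Cyp26b1 (0.08) were within 2-fold.

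Cholesterol synthesis genes were moderately higher in PZ, with 5 of 19 at least 2-fold higher, 1 in HZ and a median of 0.72. Dhcr7 (1.41), Tm7sf2 (1.33), Hsd17b7 (1.29), Cyp51 (1.28) and Fdft1 (1.08) were the 5, and Ebp (−1.16) was the 1. The probe sets of Cyp51 gave 0.29 and 2.27 and those of Fdft1 0.15 and 2.0. The list was not particular to PZ, since FZ was at least 2-fold higher than HZ for 11 of the 19 genes. FZ was at least 2-fold lower for 0 of them, and the median of FZ minus HZ was 1.41. Of 14 other targets and regulators of SREBP, the transcription factors that switch on lipid synthesis, 4 were higher in PZ, Scd (2.04), Acss2 (1.45), Elovl6 (1.32) and Srebf1 (1.29). The probe sets of Srebf1 gave 0.53 and 2.04.

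Genes that respond to low oxygen differed by member. Of 16 genes outside glycolysis 3 were at least 2-fold higher in PZ and 0 in HZ, with a median of 0.25. Besides Car9 these were Bnip3, which removes mitochondria, at 0.00 in PZ and −1.76 in HZ, and Higd1a, a mitochondrial protein, at 0.00 and −1.60. Hif1a (−0.27) and Epas1 (−0.36), the oxygen-controlled transcription factors, were within 2-fold, as were Vegfa, Egln3 (0.00), Ndrg1 (−0.02) and Adm (−0.06). In glycolysis 1 of 18 genes passed 2-fold in PZ, Aldoc (1.0), with Eno2 (0.99) and Slc2a1 (0.98), the glucose carrier, beside it. Ldha (−1.22) and Aldoa (−1.50) were the 2 at least 2-fold higher in HZ.

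Upstream sequences are shown for Bnip3 and Higd1a, and for Aldoc and Eno2, the 2 genes with the largest PZ difference on each of these lists among those that hold ACGTG, the core of the hypoxia response element, in the 250 bases before their start. The motif was searched on both strands in the RefSeq promoters of GRCr8 and is in capitals. It is also part of the E box CACGTG, and the 2 overlapping matches of Bnip3 are 1 such site read on both strands. Of the 14 hypoxia genes matched to a promoter 6 held it, and of the 16 glycolysis genes 6, beside 16.6% of all 33469 promoters. Car9, with the largest difference, held none in this window. Ldha, which was higher in HZ, held 3 matches, 2 of which overlap as those of Bnip3 do. The windows are chr1:203154963-203155212 on the minus strand for Bnip3, chr8:130400889-130401138 on the minus strand for Higd1a, chr10:63715294-63715543 on the plus strand for Aldoc and chr4:159267221-159267470 on the minus strand for Eno2.
Bnip3: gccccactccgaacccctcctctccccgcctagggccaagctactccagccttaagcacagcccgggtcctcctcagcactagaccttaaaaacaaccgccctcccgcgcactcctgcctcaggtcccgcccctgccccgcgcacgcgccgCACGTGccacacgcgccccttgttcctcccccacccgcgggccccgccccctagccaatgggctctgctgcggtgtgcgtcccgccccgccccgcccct
Higd1a: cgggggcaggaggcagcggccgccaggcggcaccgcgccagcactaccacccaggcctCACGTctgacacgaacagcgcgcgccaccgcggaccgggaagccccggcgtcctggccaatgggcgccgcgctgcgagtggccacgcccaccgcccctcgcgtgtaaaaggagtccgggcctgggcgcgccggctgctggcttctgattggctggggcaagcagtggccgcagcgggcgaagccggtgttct
Aldoc: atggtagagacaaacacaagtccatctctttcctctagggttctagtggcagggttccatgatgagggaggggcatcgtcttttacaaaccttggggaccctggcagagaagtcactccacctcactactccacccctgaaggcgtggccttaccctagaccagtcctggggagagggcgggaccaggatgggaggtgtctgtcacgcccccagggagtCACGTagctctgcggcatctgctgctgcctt
Eno2: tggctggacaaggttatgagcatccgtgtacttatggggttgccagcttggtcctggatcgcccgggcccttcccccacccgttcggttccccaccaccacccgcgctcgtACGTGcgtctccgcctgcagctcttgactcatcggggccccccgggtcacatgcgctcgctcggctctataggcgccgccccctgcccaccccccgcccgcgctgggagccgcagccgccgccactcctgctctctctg

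For the red cell genes the same was done with AGATAA, a form of the motif that GATA factors bind, which overlaps neither motif above. Of 12 genes matched to a promoter 4 held it, beside 10.3% of all promoters. Alas2 and Rhd, with the largest differences among the 4, are shown. Klf1, Gata1 and Hbb held no AGATAA in their windows, and other forms of the motif were not searched. The windows are chrX:22895200-22895449 for Alas2 and chr5:152370950-152371199 for Rhd, both on the plus strand. A match describes the sequence and is not a measured binding site.
Alas2: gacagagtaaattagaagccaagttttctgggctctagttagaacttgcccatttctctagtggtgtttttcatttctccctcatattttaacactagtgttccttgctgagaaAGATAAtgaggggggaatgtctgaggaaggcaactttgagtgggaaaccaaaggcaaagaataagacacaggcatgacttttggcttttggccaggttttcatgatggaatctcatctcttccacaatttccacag
Rhd: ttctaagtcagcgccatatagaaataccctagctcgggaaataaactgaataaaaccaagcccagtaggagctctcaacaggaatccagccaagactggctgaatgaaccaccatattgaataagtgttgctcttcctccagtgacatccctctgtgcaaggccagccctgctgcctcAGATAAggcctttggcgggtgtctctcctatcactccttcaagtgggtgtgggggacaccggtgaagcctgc

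Oxidative phosphorylation, ribosome and proteasome genes were higher in HZ, and their list medians were lowest in PZ, at −0.57, −0.58 and −0.51. In FCC these medians were −0.43, 0.02 and −0.26, so FCC was also under FZ, MZ and HZ for respiratory chain and proteasome genes. Of 45 subunits of the respiratory chain 16 were at least 2-fold higher in HZ and 0 in PZ, with a median of −0.70. Cox4i1, of complex IV, stood at −2.42 in PZ and between −0.34 and 0.16 in the other arrays, and Uqcrfs1, of complex III, at −1.78 beside −0.50 to 0.46. Of 28 ribosomal protein genes 10 were past 2-fold and higher in HZ, with Rps15a at −2.04 in PZ and within 0.04 of 0 elsewhere. Of 30 proteasome genes 8 were, with Psmc5 at −2.47 in PZ.

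With FZ in the place of PZ, none of these 3 lists had a gene past 2-fold in either direction, and the medians were −0.10, −0.04 and 0.17. Of 8 commonly used reference genes, Gusb, Rplp0, B2m and Ywhaz were at least 2-fold higher in HZ than in PZ (−1.58, −1.49, −1.37 and −1.12). Tbp (0.03) and Pgk1 (0.07) were level, and 0 of 8 were past 2-fold between FZ and HZ. The list median was −0.69 in PZ and 0.00 in FCC, but Gusb was as low in FCC (−0.91) as in PZ (−0.89). The probe sets of B2m stood at −0.37 and −0.76 in FCC and at −0.99 and −0.73 in PZ. The GAPDH controls of the array, which lie towards the 3′ end, the middle and the 5′ end of the transcript, stood at −1.46, −0.85 and −0.10 in PZ and at −0.27, −0.19 and 0.00 in HZ. The other such controls did not show this order, with PZ minus HZ differences from 3′ to 5′ of −0.24, −1.0 and 0.14 for beta-actin and −0.20, 0.15 and −0.14 for hexokinase. In the PZ array 39 probe sets lay at least 2 under all other arrays, and all 39 are among the 310 higher in HZ. Of the 231 higher in PZ, 2 lay at least 2 above all other arrays in PZ, and in 19 HZ lay at least 2 under them all. The part of RNA quality or amplification in these values was not tested.

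**Figure D5:**
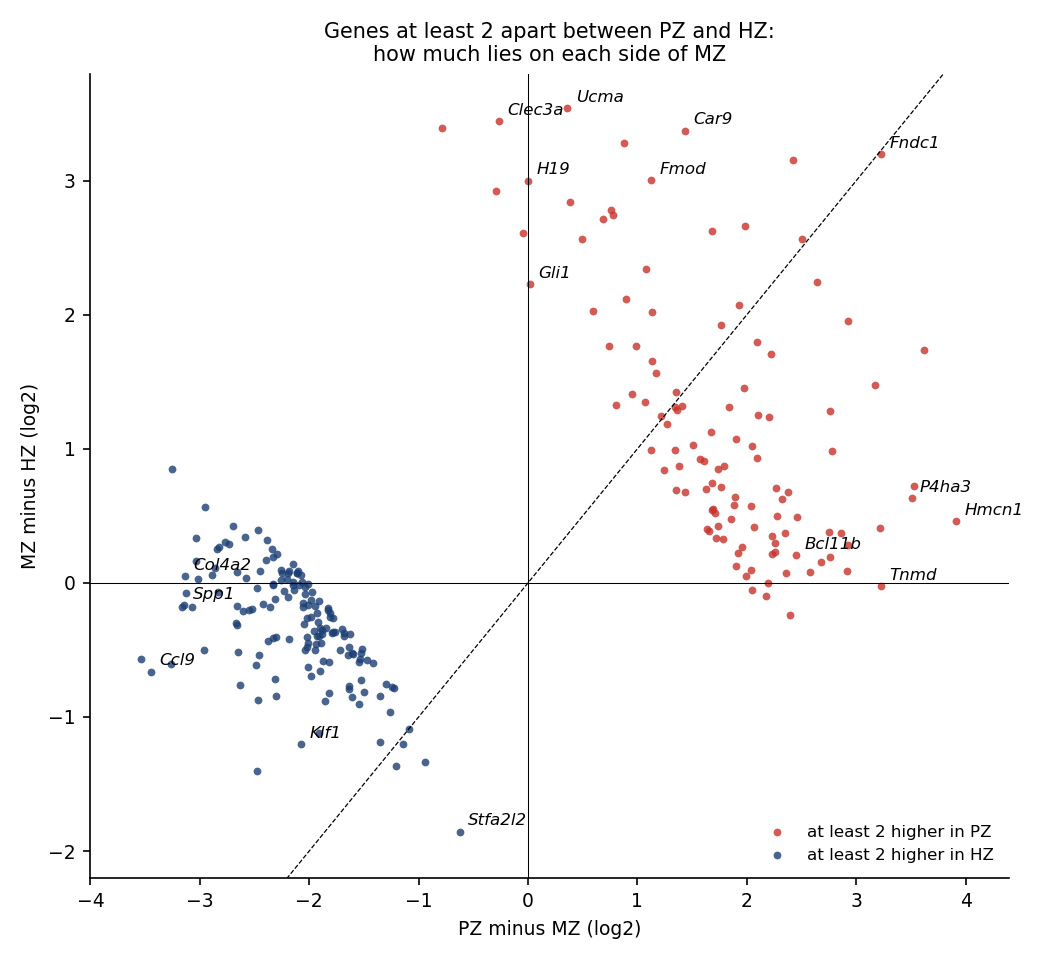
For the 267 genes at least 2 apart between PZ and HZ, the part of the difference between PZ and MZ (x axis, log2) against the part between MZ and HZ (y axis, log2). The dashed line marks equal parts. Genes higher in PZ (red) spread over both axes, and genes higher in HZ (blue) mostly lie nearer to the x axis, where MZ and HZ differ little.

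The MZ array, which lies between the zones in the tissue, was used to split each difference into 2 parts. Among the 115 genes at least 4-fold higher in PZ, 81 had the larger part between PZ and MZ and 34 between MZ and HZ, and MZ lay between PZ and HZ for 106. The medians of the parts were 1.84 and 0.93. Of the 152 genes at least 4-fold higher in HZ, 147 had the larger part between PZ and MZ, and MZ lay within 0.5 of HZ for 102. Their medians were 2.06 and 0.30. PZ was the lowest of the 5 arrays in 118 of these 152 genes, and the highest in 29 of the 115. For the 152 genes, a step along the tissue and a low PZ array would split the difference alike. Which of them applies was not tested.

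Genes that were already low in MZ were Hmcn1, Tnmd and Bcl11b, a transcription factor that stood at 2.43 in PZ, −0.01 in MZ and −0.22 in HZ and whose 3 probe sets ran from 0.76 to 3.94. Genes with most of the difference between MZ and HZ were Ucma, Clec3a, H19, Gli1 and Car9, and their parts on that side were 3.54, 3.45, 3.0, 2.23 and 3.37. Fndc1 was 3.22 higher in PZ than in MZ and 3.20 higher in MZ than in HZ. Klf1 was among the genes higher in HZ that still differed between MZ and HZ, by −1.20 after −2.07 between PZ and MZ. Stfa2l2, a stefin family member named here after its values were seen, was 1 of the 5 with the larger part between MZ and HZ, at −0.19 in PZ, 0.43 in MZ and 2.28 in HZ.

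FZ served as a further superficial array. The share of all genes past 2-fold between FZ and HZ was not counted, so the FZ counts have no such share beside them. Of the 115 genes at least 4-fold higher in PZ than in HZ, FZ was also at least 4-fold higher than HZ in 84. Of the 152 at least 4-fold higher in HZ, FZ was at least 4-fold lower than HZ in 28 and at least 2-fold lower in 93. The red cell list gave nearly the same values against either superficial array, with 13 of 16 genes at least 2-fold lower in FZ than in HZ and a median of −1.93. The same held for lymphocyte genes, with 10 of 15 and a median of −1.50. When FZ took the place of PZ, the osteoblast list had 3 rather than 7 of 13 genes higher in HZ and the FGF list 1 rather than 5 of 26.

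Probe sets of the same gene gave a check within an array. Of 163 genes that have at least 2 probe sets and 1 of them at least 4-fold apart, 47 had all their probe sets at least 2-fold apart in the same direction, and 1 had probe sets at least 2-fold apart in both directions. That 1 was Rere, from −2.08 to 1.18. The widest spreads were found for Ubl5, with 3 probe sets from −4.19 to 0.12, Akap12, from −3.47 to 0.14, and Celf2, from −3.37 to 0.18. Ubl5 held the lowest of all probe sets and is thus not among the 15 genes by its mean.

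The hybridization controls, bacterial and phage RNAs added to each sample, averaged 0.44 in PZ and −0.03 in HZ over 18 probe sets. If the arrays are aligned on the mean of these controls, all differences move by 0.46 towards HZ and the median of all genes moves to −0.46. The numbers at least 4-fold apart then become 134 higher in PZ and 819 higher in HZ, and those of genes at 2-fold 205 (1.44%) and 2668 (18.8%). Tendon genes then count 11 higher in PZ and 5 in HZ, cartilage matrix genes 7 and 1, and cholesterol synthesis genes 0 and 1 with a median of 0.25. The chondrogenic transcription factors count 0 and 1, and the SREBP list 1 and 0. The medians of 9 of 39 lists turn from positive to negative, and that of the insulin-like growth factor list moves from 0.00 to −0.46. The 9 are those of hedgehog and PTHrP signalling, skeletal muscle, smooth muscle, retinoic acid, other collagens, Wnt, glycolysis, hypoxia response and carbonic anhydrases. All differences above are given as deposited.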

How the data were processed

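Per the labels, RNA from laser-captured tissue was amplified in successive linear rounds and hybridized to Affymetrix rat genome arrays, 1 array per zone. The deposited values are on a log2 scale. MAS5 and RMA are named in the submitters' processing notes. The authors corrected the background, normalized the arrays by quantiles and subtracted from each probe set its median across the 5 arrays. That median was 0 for all 31099 probe sets, so the files hold neither levels nor a depth, and with 1 array per zone precision cannot be estimated between samples.

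The value of PZ minus that of HZ was taken for 31042 probe sets after leaving out 57 controls. GEO's platform table gave 1 gene symbol for 20826 probe sets, several for 436 and none for 9780. Symbols of 20764 were updated through RefSeq gene IDs. Probe sets of a gene were averaged, which left 14217 genes. No test was possible and none was run. Sizes of 2 (probe sets) and 1 (genes) on the log2 scale served for counts. The genes named were the 15 at each end of the gene ranking and members of 39 gene lists. The members and lists were chosen with earlier results of these data known, and 3 further lists, together with the comparison in which FZ takes the place of PZ, were added after the values were seen. Alternatives were other thresholds, other centring and scaling, and other rules for genes with several probe sets. The scripts were tested on simulated data. Promoters came from RefSeq (GRCr8). Python 3.11.15 with numpy 2.4.6, pandas 2.3.3 and matplotlib 3.10.9 was used.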

Additional observations from a re-analysis of the deposited data

How the results depend on the processing

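No paired analysis was possible because each zone has 1 array and no test was run. With both arrays shifted to equal hybridization controls, the 231 probe sets at least 2 higher in PZ became 134 and the 310 higher in HZ became 819. At a difference of 1 the counts were 1184 and 2284, at 1.4 they were 545 and 1077, and at 3 they were 73 and 36. With 1 value per gene they were 115 and 152. Centring each array on its median gave 231 and 310, probe sets with 1 symbol 179 and 247, and leaving out probe sets that stand apart in PZ alone or HZ alone 210 and 271. The shift moved all 39 list medians and all 30 end genes by 0.46, and no end gene changed direction. Taking the probe set with the largest difference in place of the mean moved 1 list median and 2 end genes by more than 0.33, the median SD between probe sets of a gene, and the smallest moved 2 end genes. Taking FZ in the place of PZ moved 15 of 39 list medians by more than that. The cause of these moves, beyond the construction of each alternative, was not tested. Most end genes rest on 1 probe set, and 1665 probe sets were 0 in both arrays, so that no difference could be read from them.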

Other observations

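Genes of the circadian clock, a list added after the values were seen, held some of the larger differences. Of 21 measured genes 4 were at least 2-fold higher in PZ and 1 in HZ, with a median of 0.33. Npas2, a partner of Bmal1 in activating clock genes, stood at 0.32 in FZ and 0.00 in PZ, against −2.22 in MZ and −3.93 in HZ. Nr1d1, a repressor in the second loop of the clock, stood at 0.00 in PZ, −1.41 in MZ and −2.73 in HZ, and Bhlhe41, another repressor, at 0.00, −1.27 and −2.46. Dbp, an output gene of the clock, stood at 0.00, −1.02 and −1.53. Each of these 4 has 1 probe set, and in each MZ lay between PZ and HZ. In FCC these 4 genes stood at 0.61, 0.91, 1.07 and 2.37, above PZ. The core activators Clock (0.18) and Bmal1 (−0.03) and the repressors Per2 (0.33), Cry1 (0.67) and Per1 (0.77) were within 2-fold, and Nfil3, which opposes Dbp, was 1.15 higher in HZ. When the arrays were shifted to equal hybridization controls, the counts were 4 and 1 again and the median was −0.13. The list was not particular to PZ, since FZ was at least 2-fold higher than HZ in 5 of 21 genes. FZ was at least 2-fold lower in 0, and the median of FZ minus HZ was 0.32.

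Lysosomal genes, also listed after the values were seen, were all lower in PZ than in HZ. Of 30 genes 15 were at least 2-fold lower, with a median of −1.01. Arsb, a sulfatase that degrades dermatan and chondroitin sulfate, stood at −1.36 in PZ and 1.45 in HZ, with probe sets at −3.02 and −2.60. Ctsb, a cathepsin, stood at −2.33 in PZ and between −0.07 and 0.02 in FZ, MZ and HZ, and Psap, the precursor of the saposins, at −1.86 in PZ and 0.44 in HZ. Lamp1, a membrane protein of the lysosome, differed by −0.07. FZ was at least 2-fold lower than HZ in 3 of 30, with a median of −0.38. The immunoproteasome subunits Psmb9 (−2.64) and Psmb8 (−2.12) and the class II genes RT1-Da (−1.90) and Cd74 (−1.61) were also higher in HZ, while the interferon-induced genes Isg15 (0.02), Mx1 (−0.17) and Ifit1 (0.22) were level. Of 32 genes on that list 11 were at least 2-fold higher in HZ and 0 in PZ.

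Haem synthesis and iron uptake, the third list added, had 10 of 15 genes at least 2-fold higher in HZ and a median of −1.40. The mitochondrial iron carrier Slc25a37 stood at −0.17 in PZ and 2.28 in HZ, Cpox at −0.29 and 1.89 and Fech, which inserts the iron, at −0.75 and 1.25. Alas1, the form of the first enzyme found in all tissues, differed by −0.20, beside −3.46 for the red cell form Alas2. FZ was at least 2-fold lower than HZ in 8 of 15. Of 36 axon guidance genes 4 were at least 2-fold higher in PZ and 5 in HZ. Sema3c, a secreted semaphorin, stood at 0.00 in PZ and −1.41 in HZ, and Slit3, a ligand of Robo receptors, at −1.30 and 0.83.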
